A study of Homo sapiens with 6 samples.

Results

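The interleukin-1 (IL-1) system was described here by 10 genes: the ligands IL1A, IL1B, IL18 and IL33, the receptor antagonist IL1RN, the receptor chains IL1R1, IL1RAP and IL1R2, the protease CASP1 and the kinase-like adaptor IRAK2. The members were found by exact gene symbol, and all 10 stood in the deposited table of 63241 genes. The RNA came from MDA-MB-231 cells, an established human breast cancer line that lacks the hormone receptors and HER2 and looks mesenchymal. The tested cells were given 40 µM of ArA, which the study's title spells as arachidonic acid, and were kept in culture for 24 h (3 libraries). The control cells were non-treated (3 libraries), and the labels name no vehicle for them. No culture time is recorded for the control cells. All 6 libraries came from the same line in DMEM with fetal bovine serum. The labels do not say whether the replicates were separate cultures, so the p-values speak only of how much these libraries vary, and that variation may be technical.

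IL-1 alpha and IL-1 beta are cytokines that bind the same receptor, IL1R1, which recruits the accessory chain IL1RAP and passes the signal through MYD88 and the IRAK proteins to NF-kB and MAP kinases. IL-1 beta and IL-18 are made as inactive precursors and are cut by caspase-1 in inflammasomes, whereas the precursor of IL-1 alpha is already active. The system has its own brakes, among them IL1RN, which occupies IL1R1 without signalling, and IL1R2, which binds ligand but has no signalling domain. Arachidonic acid is the precursor of prostaglandins, whose synthesis IL-1 is known to induce. These roles are background, and no protein, cleavage or secretion was measured.

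The 250 bases before the first RefSeq start of IL1B, IL1A and IRAK2 (GRCh38.p14) are shown because IL1B and IRAK2 are the tested members whose ArA values all lay above all control values, and IL1A is the agonist gene next to IL1B. The windows are chr2:112836780-112837029 on the minus strand for IL1B, chr2:112784494-112784743 on the minus strand for IL1A and chr3:10164669-10164918 on the plus strand for IRAK2. Each is written 5′ to 3′, with matches to the searched motifs in capitals.
IL1B: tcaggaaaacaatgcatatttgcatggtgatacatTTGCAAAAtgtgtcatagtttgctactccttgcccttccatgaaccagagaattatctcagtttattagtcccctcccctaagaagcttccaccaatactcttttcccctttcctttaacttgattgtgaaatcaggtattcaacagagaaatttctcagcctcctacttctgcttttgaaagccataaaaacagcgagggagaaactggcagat
IL1A: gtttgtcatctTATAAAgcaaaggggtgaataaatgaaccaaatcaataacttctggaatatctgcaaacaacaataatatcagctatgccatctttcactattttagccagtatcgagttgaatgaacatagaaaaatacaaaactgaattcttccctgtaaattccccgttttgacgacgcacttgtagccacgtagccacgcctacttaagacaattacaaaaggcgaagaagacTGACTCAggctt
IRAK2: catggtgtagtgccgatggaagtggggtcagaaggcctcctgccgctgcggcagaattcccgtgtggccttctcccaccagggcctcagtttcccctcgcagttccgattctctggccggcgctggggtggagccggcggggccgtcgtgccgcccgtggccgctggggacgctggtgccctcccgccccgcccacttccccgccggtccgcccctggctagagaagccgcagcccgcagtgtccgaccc
Motifs named for NF-kB (GGNNTTTCC), AP-1 (TGANTCA), C/EBP (TTGCNNAA) and the TATA box (TATAAA) were searched on both strands. The IL1B window held 1 C/EBP match and none of the other motifs, the IL1A window held 1 AP-1 and 1 TATA match, and the IRAK2 window held no match to any of them. The IL1A counts depend on the start: the window of its other RefSeq start, not shown, held 2 AP-1 and 0 TATA matches. The IRAK2 result depends on the pattern: a looser NF-kB pattern searched first (3 G, any 5 bases and 2 C, either strand) matched 2 times in the IRAK2 window, 0 times in the IL1B and IL1A windows, and in 54.4% of all windows. The C/EBP match began 215 bases before the IL1B start. In the IL1A window the AP-1 match began 12 bases before the start and the TATA match 239 bases before it. No 2 matches overlapped. The GC content was 40.0% for IL1B, 37.6% for IL1A and 72.0% for IRAK2, against a median of 58.0% over 35116 windows. Of those windows, 5.48% held the NF-kB letters, 6.57% the AP-1 letters, 9.05% the C/EBP letters and 10.7% the TATA letters. A match is a description of the letters only. The table of promoters matched 8 of the 10 members.

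Values were deposited as TPM, a length-scaled share of the transcripts in a library, so levels can be set side by side between genes. Read totals cannot be had from such shares, so library depth is unknown. The 12999 genes averaging 1 TPM or more across the libraries were tested with limma on log2(TPM + 1), and fold changes on this scale understate those of low genes. ArA replicate 1 and control replicate 2 stood apart from the other 4 libraries on the first principal component (41.3% of the variance) and were the only libraries in which transcripts rich in GC were relatively high, with slopes of 0.14 and 0.18 log2 units per 10 points of GC. Over all tested genes the log2 fold change had a median of 0.06 and was positive for 68.9%. Of the line's own markers, VIM averaged 1482 ± 42.5 TPM in ArA libraries and 1389 ± 52.9 TPM in control libraries (SD, n = 3 each), while ESR1 did not pass 0.03 TPM. The epithelial marker EPCAM was not low, at 5.18 ± 1.08 TPM in ArA libraries and 5.49 ± 2.03 TPM in control libraries.

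Of the 10 members, 5 passed the filter on low values (IL1B, IL18, IL1R1, IL1RAP and IRAK2), and by limma 0 of these 5 passed an adjusted p of 0.05, against 3 of all 12999 tested genes (0.0231%). At an unadjusted p under 0.05 the count was 1 of 5, IL1B, against 362 of all tested genes (2.78%). All 3 ArA values lay above all 3 control values for 2 of the 5, IL1B and IRAK2, against 889 of all tested genes (6.84%). They lay below for 0 of the 5, against 157 of all tested genes (1.21%). The genes past the adjusted threshold were ANGPTL4 and PLIN2, higher in ArA libraries, and IGF2BP2-AS1, lower in them. These counts describe a small family and are not a test of it. Its members were picked for their role, with earlier results of these data known.

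**Figure D1:**
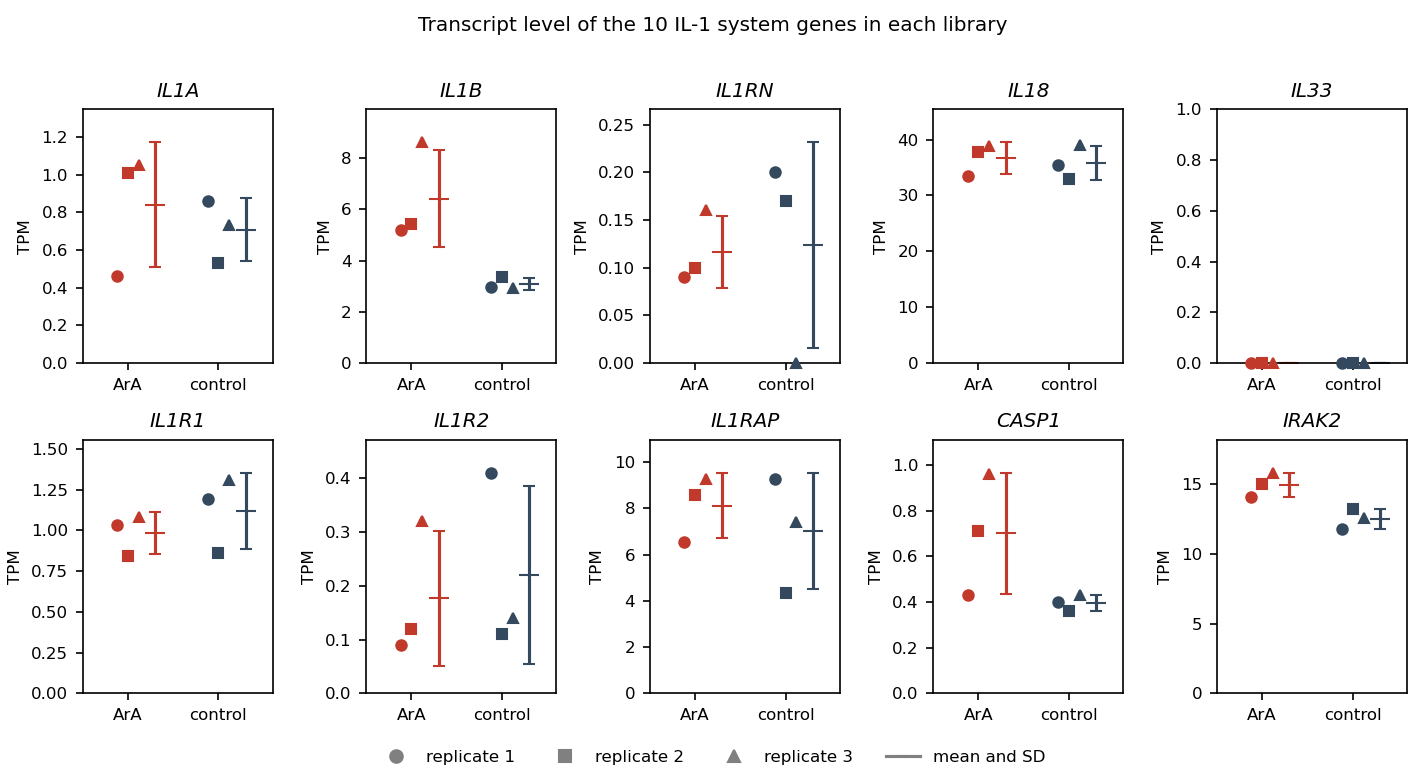
TPM of each member in each library, with ArA libraries left of control libraries, 1 point per library (circle, square and triangle for replicates 1, 2 and 3), and mean with SD (n = 3) beside the points. The vertical axes are linear, start at 0 and differ between panels. The groups separate for IL1B (5.19 to 8.60 TPM in ArA libraries, 2.92 to 3.34 TPM in control libraries) and IRAK2 (14.07 to 15.79 TPM in ArA libraries, 11.76 to 13.21 TPM in control libraries), and IL33 is listed at 0 throughout.

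Over all 6 libraries the members spanned a wide range of levels. IL18 was the highest, at 32.90 to 38.99 TPM, and IRAK2 was next, at 11.76 to 15.79 TPM. IL1RAP (4.33 to 9.28 TPM) and IL1B (2.92 to 8.60 TPM) overlapped in range, although IL1RAP was above IL1B within each of the 6 libraries. In control libraries alone every IL1RAP value was above every IL1B value. Below them, IL1R1, IL1A, CASP1, IL1R2 and IL1RN followed in order of mean, and each of these overlapped its neighbour in that order. The gap between IL1B and IL1R1 (at most 1.31 TPM) held in every library.

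IL1B, the gene of the secreted agonist, had 5.19, 5.44 and 8.60 TPM in ArA libraries, against 2.96, 3.34 and 2.92 TPM in control libraries. Every ArA library was above every control library, and ArA replicate 3 was the highest of the 6. The means were 6.41 ± 1.90 TPM in ArA libraries and 3.07 ± 0.232 TPM in control libraries (SD, n = 3 each), a 2.09-fold ratio. On the log2 scale the fold change came to 0.84 (SE 0.20, 95% interval 0.38 to 1.30), with an unadjusted limma p of 0.00351 and an adjusted p of 0.999, so the difference did not pass the threshold over all genes. By p it ranked 33 of 12999. IL1B is a gene of modest level here, at the 28.6 percentile of tested genes by mean TPM. Without ArA replicate 1 and control replicate 2 the log2 value became 1.00 (SE 0.21, adjusted p = 0.478, range over all alternatives 0.478 to 1), and with a pseudocount of 5 it was 0.49. In bulk RNA, more cells that express a gene and more RNA per cell cannot be told apart.

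**Figure D2:**
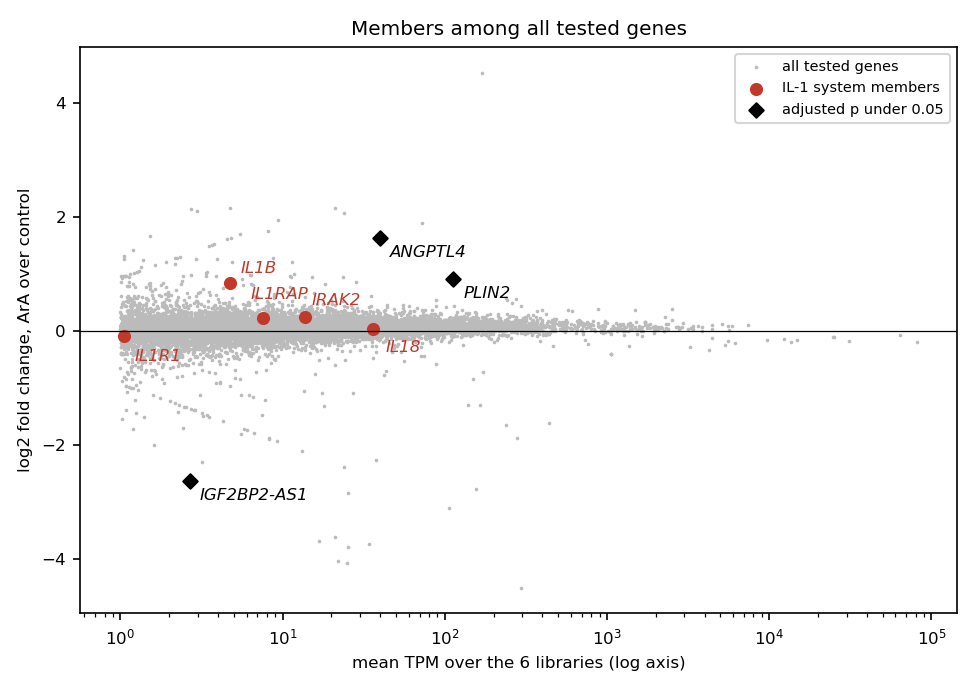
Each point is a tested gene, with mean TPM over the 6 libraries on a log axis and log2 fold change (ArA over control) on the vertical axis. The 5 tested members are in red and the 3 genes past the adjusted threshold in black. IL1B (0.84) ranked 67 of 12999 by log2 fold change, while IRAK2 (0.24), IL1RAP (0.23), IL18 (0.04) and IL1R1 (−0.09) lie within the band of the other genes.

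Myeloid cells are the textbook source of IL-1 beta, and a list of 10 of their markers was read beside IL1B. Of the 10, 9 had a mean below 1 TPM, and AIF1 was listed at 0 in all libraries. The exception was CD68, a lysosomal protein made by many cell types, with 234 ± 28.6 TPM in ArA libraries and 199 ± 19.4 TPM in control libraries, and overlapping groups. With CD68 the list summed to 218.6 to 268.9 TPM in ArA libraries and 187.7 to 223.6 TPM in control libraries. Summed without CD68, the list came to 1.38 to 1.77 TPM in ArA libraries and 2.11 to 3.05 TPM in control libraries. PTPRC, the leukocyte antigen CD45, did not pass 0.15 TPM, and LYZ did not pass 0.11 TPM. CSF1R, the receptor of a macrophage growth factor, had 0.95, 0.98 and 1.11 TPM in ArA libraries, against 0.52, 1.02 and 1.02 TPM in control libraries. FCER1G, an Fc receptor chain, had 0.39, 0.21 and 0 TPM in ArA libraries, against 1.19, 0.74 and 1.02 TPM in control libraries. It alone of the summed genes had groups that did not overlap, so the split of the sum without CD68 rests on this low gene. The markers thus did not move together, and their part in the IL1B difference was not tested.

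IL1A, the gene of the agonist that needs no cutting, had 0.46, 1.01 and 1.05 TPM in ArA libraries, against 0.86, 0.53 and 0.73 TPM in control libraries. The groups overlapped, and the lowest value of each group fell in ArA replicate 1 and control replicate 2, the libraries that stood apart. The means were 0.840 ± 0.330 TPM in ArA libraries and 0.707 ± 0.166 TPM in control libraries (SD, n = 3 each), under the filter, and the exact permutation p was 0.6 (2-sided, the smallest possible is 0.1). IL1A and IL1B lie next to each other on the minus strand of chromosome 2 (hg38, GENCODE v29: IL1A at 112773915 to 112784590, IL1B at 112829751 to 112836903), 45160 bases apart. Within a library, IL1B was 11.3, 5.39 and 8.19 times IL1A in ArA libraries, and 3.44, 6.30 and 4.00 times IL1A in control libraries. These ratios overlapped between the groups.

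IL18 encodes a ligand of a separate receptor pair and is known to be made by many epithelial cells. It had 33.55, 37.76 and 38.80 TPM in ArA libraries, against 35.47, 32.90 and 38.99 TPM in control libraries. The groups overlapped almost fully. By limma its log2 fold change stood at 0.04 (SE 0.11, 95% interval −0.21 to 0.29, adjusted p = 0.999), and the sign flipped under each of the 3 other scalings, to between −0.03 and −0.02. IL18 lies on chromosome 11 (112143251 to 112164117, minus strand) and overlaps AP002884.3 on the other strand, which did not pass 1.02 TPM. Whether counting used strand is not given in the sources used here, so reads of the overlap cannot be told apart.

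The balance of these caspase-1 substrates was read as their ratio within each library, which a common factor per library does not change. IL18 was 6.46, 6.94 and 4.51 times IL1B in ArA libraries, against 12.0, 9.85 and 13.4 times in control libraries. Each ArA library lay below each control library. The IL18 values overlapped between the groups, so this split mostly restates that of IL1B. The mean ratio was 5.97 ± 1.29 in ArA libraries and 11.7 ± 1.77 in control libraries (SD, n = 3 each). IL33, an alarmin of epithelial and endothelial nuclei, was listed at 0 TPM in all 6 libraries, and no fold can be given.

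The antagonist gene IL1RN had 0.09, 0.10 and 0.16 TPM in ArA libraries, against 0.20, 0.17 and 0 TPM in control libraries. The groups overlapped, with an exact permutation p of 0.9. The decoy receptor gene IL1R2 had 0.09, 0.12 and 0.32 TPM in ArA libraries, against 0.41, 0.11 and 0.14 TPM in control libraries, and its exact permutation p was 0.6. Both of these brake genes were therefore under 0.5 TPM in every library. Summed, they came to 0.18, 0.22 and 0.48 TPM in ArA libraries and 0.61, 0.28 and 0.14 TPM in control libraries, while the agonists IL1A and IL1B summed to 5.65, 6.45 and 9.65 TPM in ArA libraries and 3.82, 3.87 and 3.65 TPM in control libraries. The agonist sum exceeded the sum of IL1RN and IL1R2 in each of the 6 libraries. That sum leaves out SIGIRR, a receptor that dampens IL-1 signalling. SIGIRR had 7.99 to 8.09 TPM in ArA libraries and 8.88 to 10.50 TPM in control libraries. It was above the agonist sum in every library but ArA replicate 3.

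IL1R1, the signalling receptor, had 1.03, 0.84 and 1.08 TPM in ArA libraries, against 1.19, 0.86 and 1.31 TPM in control libraries. The groups overlapped, and limma gave −0.09 as the log2 fold change (SE 0.17, 95% interval −0.49 to 0.31, adjusted p = 0.999). With a mean of 1.05 TPM it stood just above the filter, and IL1A stood just below it. IL1R1 and IL1R2 are neighbours on the plus strand of chromosome 2, 35999 bases apart (IL1R2 at 101991844 to 102028544, IL1R1 at 102064544 to 102179874). IL1R1-AS1, which overlaps IL1R1, was listed at 0.

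IL1RAP, the accessory chain shared by the IL-1, IL-33 and IL-36 receptors, had 6.54, 8.57 and 9.26 TPM in ArA libraries, against 9.28, 4.33 and 7.43 TPM in control libraries. The lowest value of each group again fell in ArA replicate 1 and control replicate 2. Its log2 fold change came to 0.23 (SE 0.26, 95% interval −0.38 to 0.83, adjusted p = 0.999). It was −0.04 without control replicate 2, and 0.09 without both of those libraries, and the part that these libraries play was not tested. IL1RAP was 6.35, 10.2 and 8.57 times IL1R1 in ArA libraries, and 7.80, 5.03 and 5.67 times IL1R1 in control libraries. In every library, then, the accessory chain stood well above the receptor chain that binds the ligand.

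Of the 14 other genes of the family looked up, 10 were above 0 in a library and 1 passed the filter. That gene, SIGIRR, a receptor that dampens IL-1 and Toll-like receptor signalling, had 7.99, 8.06 and 8.09 TPM in ArA libraries, against 8.88, 10.50 and 8.95 TPM in control libraries. All ArA values were below all control values, but the log2 fold change of −0.20 (SE 0.12) had an adjusted limma p of 0.999. IL18BP, the soluble inhibitor of IL-18, had 0.66, 0.56 and 0.80 TPM in ArA libraries, against 1.03, 0.72 and 1.13 TPM in control libraries, and IL18R1, the IL-18 receptor chain, did not pass 0.20 TPM. The line thus held much transcript of the IL-18 ligand and little of its receptor.

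CASP1, the protease that cuts pro-IL-1 beta and pro-IL-18, had 0.43, 0.71 and 0.96 TPM in ArA libraries, against 0.40, 0.36 and 0.43 TPM in control libraries. The groups met at 0.43 TPM, which occurred once in each. The means were 0.700 ± 0.265 TPM in ArA libraries and 0.397 ± 0.0351 TPM in control libraries (SD, n = 3 each), with an exact permutation p of 0.2. Of the 4 members under the filter and above 0 in a library (IL1A, IL1RN, IL1R2 and CASP1), 0 had groups that did not overlap, against 701 of 15139 genes under the filter and above 0 in a library (4.63%). CASP1 lies on chromosome 11 (105025443 to 105035250, minus strand) in a cluster of related genes. Its neighbour CARD16, whose protein resembles the start of caspase-1, had 0.68, 0.82 and 3.29 TPM in ArA libraries and 1.66, 0.13 and 1.69 TPM in control libraries. Reads from such related sequences may have been split between the genes, so levels of both are uncertain.

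Of 21 other genes of IL-1 processing and release found in the table, 13 were tested, and by limma 0 passed the adjusted threshold. Of the 13, 11 had a positive and 2 a negative log2 fold change, with a median of 0.10 beside 0.06 for all tested genes. Under the 3 other scalings 8 to 9 were positive, beside 49.3 to 53.2% of all tested genes, and the median of the list stayed 0.04 above that of all tested genes. The most abundant were S100A13, a partner in IL-1 alpha export, with 181 ± 10.0 TPM in ArA libraries and 169 ± 11.2 TPM in control libraries (SD, n = 3 each), and CAPN2, a calpain subunit, with 167 ± 19.8 TPM in ArA libraries and 149 ± 19.9 TPM in control libraries. HAX1, which binds the IL-1 alpha precursor, averaged 123 ± 1.73 TPM in ArA libraries and 119 ± 14.7 TPM in control libraries. CASP4, the caspase of the non-canonical inflammasome, had 30.21, 42.23 and 41.80 TPM in ArA libraries, against 30.53, 27.81 and 32.82 TPM in control libraries, and its groups overlapped (log2 fold change 0.30, SE 0.15). CASP8 averaged 28.4 ± 4.11 TPM in ArA libraries and 23.9 ± 2.98 TPM in control libraries, and CARD8 18.5 ± 6.16 TPM in ArA libraries and 20.8 ± 2.79 TPM in control libraries. The inflammasome sensors differed in level: NLRP1 had 6.88, 7.91 and 7.22 TPM in ArA libraries, against 6.72, 6.67 and 7.14 TPM in control libraries, while NLRP3 did not pass 0.54 TPM, AIM2 0.10 TPM and NLRC4 0.07 TPM. The adaptor PYCARD was listed at 0 in all ArA libraries, against 0.13, 0.06 and 0.19 TPM in control libraries. These values are too low to show a split. Of all genes under the filter and above 0 in a library, 4.63% had groups that did not overlap. These sensors and PYCARD were picked out after their values had been seen.

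IRAK2, which joins MYD88 and the IRAK kinases in the complex at the receptor, had 14.07, 15.03 and 15.79 TPM in ArA libraries, against 11.76, 13.21 and 12.58 TPM in control libraries. Every ArA library was above every control library, by a narrow margin. The means were 15.0 ± 0.862 TPM in ArA libraries and 12.5 ± 0.727 TPM in control libraries (SD, n = 3 each), a 1.20-fold ratio. The corresponding log2 fold change was 0.24 (SE 0.11, 95% interval −0.01 to 0.49), with an adjusted limma p of 0.999, and it ranked 430 of 12999 by p. IRAK2 lies on the plus strand of chromosome 3 (10164865 to 10243743).

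Of 27 other genes that relay the IL-1 signal, 24 were tested, and by limma 0 passed the adjusted threshold. Of the 24, 21 had a positive and 3 a negative log2 fold change (87.5% positive, beside 68.9% of all tested genes), with a median of 0.09. Under the 3 other scalings 17 were positive, beside 49.3 to 53.2% of all tested genes, and in all 4 scalings the median of the list lay 0.03 above that of all tested genes. IRAK1, the partner kinase, averaged 146 ± 2.99 TPM in ArA libraries and 146 ± 21.3 TPM in control libraries (SD, n = 3 each). UBE2V1 and UBE2N, which build the ubiquitin chains that activate the relay, averaged 144 ± 12.4 and 114 ± 18.1 TPM in ArA libraries, against 137 ± 10.9 and 102 ± 15.3 TPM in control libraries. IKBKG, the regulatory subunit of the IkB kinase complex, had 32.09, 29.25 and 31.12 TPM in ArA libraries, against 25.97, 27.51 and 25.36 TPM in control libraries, and limma put its log2 fold change at 0.22 (SE 0.09, adjusted p = 0.999). MYD88, the adaptor of the receptor, had 37.25, 37.36 and 40.15 TPM in ArA libraries, against 33.08, 33.55 and 35.10 TPM in control libraries. IKBKG and MYD88 were the 2 genes of the 24 with every ArA value above every control value, near the 6.84% of all tested genes with that pattern. The log2 fold changes of ECSIT, a TRAF6 adaptor, and of RELA, an NF-kB subunit, were 0.24 and 0.18.

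A list of 25 genes that IL-1 is known to induce was read as the end of the pathway, and by limma 0 of its 22 tested genes passed the adjusted threshold. Of the 22, 13 had a positive and 9 a negative log2 fold change (59.1% positive), with a median of 0.06, beside 0.06 for all tested genes. Under the 3 other scalings 11 were positive, beside 49.3 to 53.2% of all tested genes. The median depended on the filter. Where a mean of at least 5 TPM was asked, 10 of 15 were positive, with a median of 0.17 beside 0.06 for all genes. IL6, a cytokine induced by IL-1, had 21.00, 17.01 and 23.13 TPM in ArA libraries, against 9.91, 10.68 and 9.54 TPM in control libraries, and every ArA library was higher. Its log2 fold change was 0.94 (SE 0.14) with an adjusted limma p of 0.335. PTGES, a prostaglandin E synthase, had 20.68, 18.75 and 18.44 TPM in ArA libraries, against 11.26, 13.47 and 10.78 TPM in control libraries, and its groups did not overlap (log2 fold change 0.66, SE 0.12, adjusted p = 0.690). CSF2, the growth factor GM-CSF, had 11.22, 11.34 and 12.11 TPM in ArA libraries, against 9.95, 8.32 and 6.27 TPM in control libraries (0.47, SE 0.17, adjusted p = 0.999). LIF and NFKBIA were the other genes of the list with all ArA values above all control values, 5 of 22 in all, beside 6.84% of all tested genes. MMP1, a collagenase, was the 1 gene of the 22 with all ArA values below, beside 1.21% of all tested genes. The most abundant genes of the list lay close to equal in the groups: IER3, an immediate early gene, averaged 332 ± 7.65 TPM in ArA libraries and 338 ± 27.8 TPM in control libraries, and CCL2, a monocyte chemokine, averaged 96.5 ± 5.45 TPM in ArA libraries and 100.7 ± 3.32 TPM in control libraries. NFKB2, a target and subunit of NF-kB, averaged 79.1 ± 1.58 TPM in ArA libraries and 81.6 ± 7.66 TPM in control libraries. PTGS2, the inducible cyclooxygenase, averaged 20.7 ± 2.35 TPM in ArA libraries and 20.3 ± 3.93 TPM in control libraries, and its groups overlapped.

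**Figure D3:**
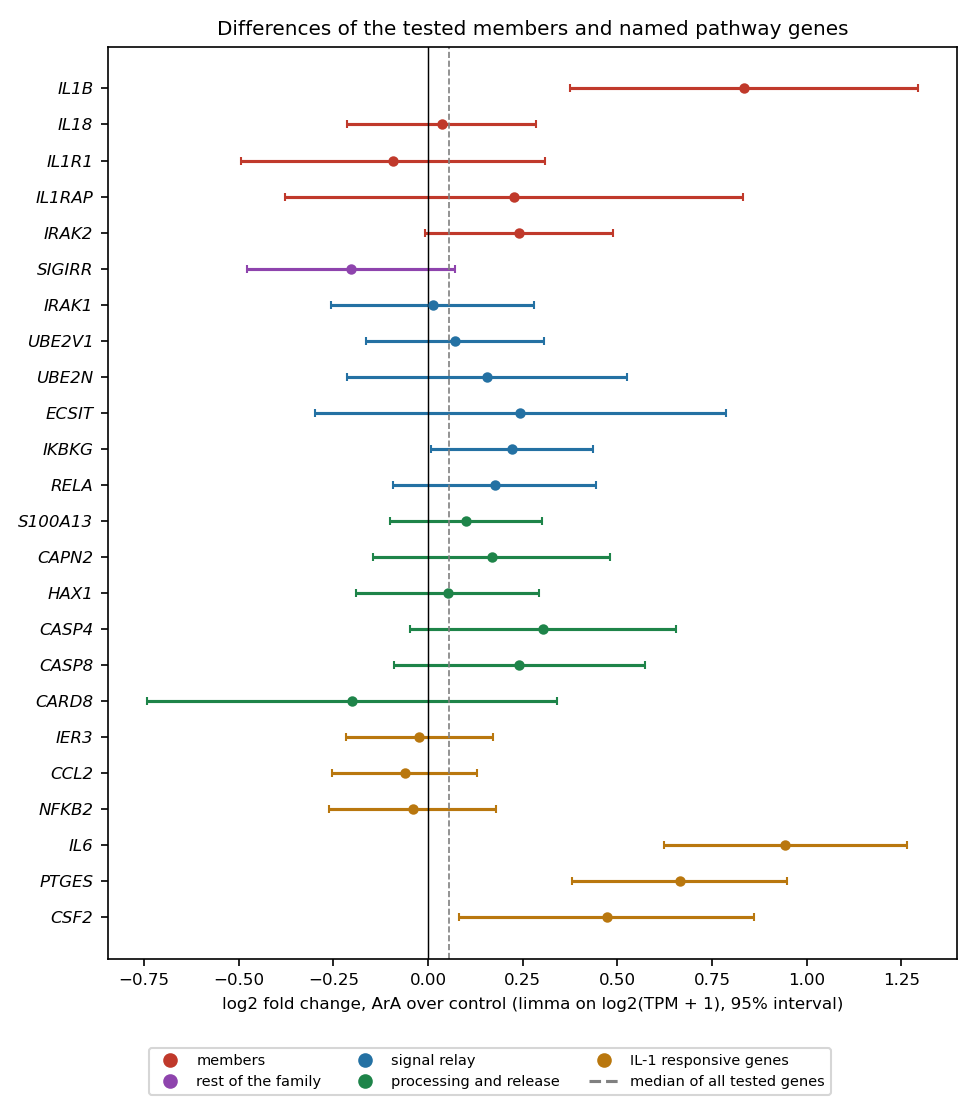
Log2 fold change (ArA over control) with its 95% interval from limma on log2(TPM + 1), for the 5 tested members and the named genes of the 4 lists, coloured by list; the dashed line is the median of all tested genes, 0.06. The intervals of IL1B (0.38 to 1.30), IL6, PTGES, CSF2 and IKBKG lie above 0, and no gene shown passed the adjusted threshold.

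The profile of IL1B over the 6 libraries, each gene centred on its own mean of log2(TPM + 1), was nearest to that of IL6, with a root mean square difference of 0.16 log2 units. PLIN2, a lipid droplet protein, followed at 0.16, and IFNL3, a type III interferon, at 0.17. IFNL3 had 2.31, 2.42 and 3.38 TPM in ArA libraries, against 1.32, 1.90 and 1.01 TPM in control libraries. The profile of IL18 was nearest to those of YBX1, DUSP4 and PDXDC1 (0.01 to 0.02 log2 units), which, like IL18, hardly varied. Likeness over 6 libraries with 2 groups mostly measures the same split between groups and says nothing of shared control.

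**Figure D4:**
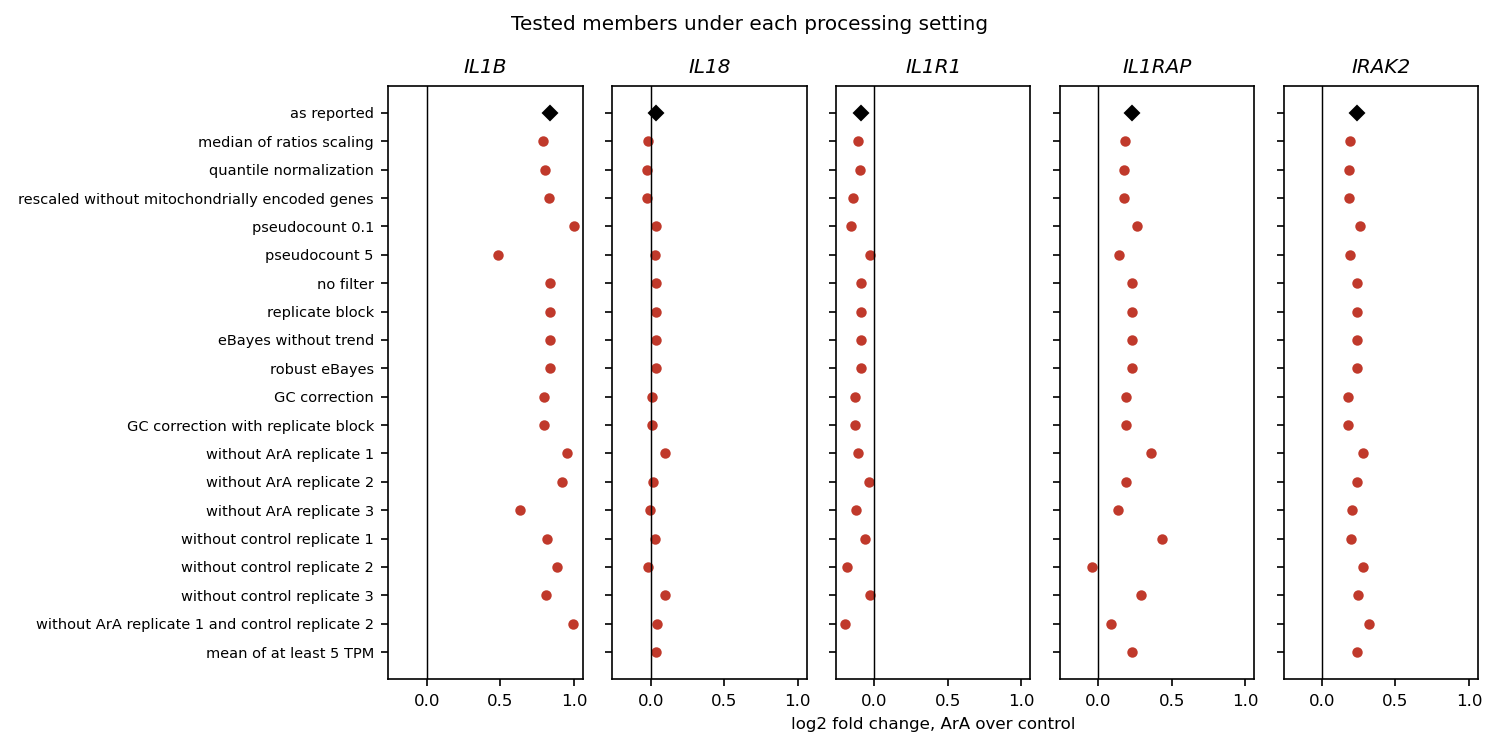
Log2 fold change (ArA over control, horizontal axis) of the 5 tested members under each processing setting (rows), with the reported value as a black diamond. IL1B stayed between 0.49 and 1.00 and IRAK2 between 0.18 and 0.32, while IL18 and IL1RAP crossed 0; IL1B has no point where a mean of at least 5 TPM was asked.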

How the data were processed

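Transcript levels came from 1 deposited table of 6 MDA-MB-231 RNA-seq libraries, 3 ArA and 3 control, grouped by their titles. The authors deposited TPM, and per the submitters' processing notes HISAT2, StringTie, RSEM and hg38 were used, with no versions stated. What each tool did, the annotation and the strand setting were not given in the sources used here. Without read counts the depth of a library is unknown, and only the replicates' spread shows precision. Since values are shares, mitochondrially encoded transcripts (26.9 to 32.9% of the total) can shift all others. The 50 lines that name no gene were left out.

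Genes averaging 1 TPM or more went into limma 3.58.1 (R 4.3.3) on log2(TPM + 1), with lmFit, eBayes with trend and no term but group. The 2-sided tests had Benjamini-Hochberg adjustment over all 12999 tested genes and a threshold of 0.05. Members under the filter had the exact permutation test of their 6 values. The fit was tested on simulated data. Other genes were named as the 3 of highest mean TPM and the 3 of largest log2 fold change (mean of at least 5 TPM) of each of 4 lists; others are said to be chosen after their values were seen, as were MYD88, PTGS2, CSF1R, LIF, NFKBIA, MMP1, IL18BP, IL18R1 and CARD16. The members and lists were chosen with earlier results of these data known. Coordinates came from GENCODE v29 on hg38, and promoter sequences from RefSeq; the NF-kB motif replaced a looser pattern after the matches of that one had been seen. Alternatives were 3 scalings, 2 pseudocounts, 2 filters, the replicate block, eBayes settings, a GC correction by spline with 5 degrees of freedom, and leaving libraries out.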

Additional observations from a re-analysis of the deposited data

How the results depend on the processing

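By limma, 0 members and 0 other genes of the 4 lists passed the adjusted threshold under every setting run. The count over all genes, 3 as reported, was 0 with the replicate block (232 at an unadjusted p under 0.05), 5 with the GC correction, 0 to 7 with 1 library left out and 12 without ArA replicate 1 and control replicate 2, a setting added after seeing the data. The log2 fold change of IL1B was positive under 18 of 18 alternatives (0.49 to 1.00, adjusted limma p 0.478 to 1), the lowest with a pseudocount of 5, and that of IRAK2 under 19 of 19 (0.18 to 0.32). IL1B was not tested where a mean of at least 5 TPM was asked. IL18 changed sign with median of ratios scaling (−0.0156), quantile normalization (−0.0259) and rescaling without mitochondrially encoded genes (−0.0276), and ran from −0.0212 (without control replicate 2) to 0.098 with 1 library left out. IL1RAP ran from −0.0413, without control replicate 2, to 0.43. The causes were not tested, beyond the construction of each setting.

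Same-numbered libraries did not deviate together (correlations −0.16, −0.28 and 0.11). These correlations cannot show whether the numbers were a pairing by design, since ArA replicate 1 and control replicate 2 stood apart. The labels do not say what the numbers share. No member passed the adjusted threshold with or without the replicate block, so the block had no call of a member to change. TPM gives no depth, which limits IL1A, IL1RN, IL1R2 and CASP1, all under 1.1 TPM, and also IL1R1, at most 1.31 TPM.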

Other observations

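Of the coding genes beside the agonists on chromosome 2, only CKAP2L was above the filter, and it did not share the split of IL1B. CKAP2L, a spindle protein gene next to IL1A, had 4.69, 7.27 and 9.85 TPM in ArA libraries, against 8.49, 4.64 and 9.57 TPM in control libraries, and its groups overlapped. The lowest CKAP2L value of each group fell in ArA replicate 1 and control replicate 2, the libraries that stood apart. IL37, the family gene beyond IL1B, did not pass 0.19 TPM, too low to show a split.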
